A study of Mus musculus with 24 samples.

Results

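The genes described here write, read or support one silencing mark: Setdb1, Ehmt1, Ehmt2, Suv39h1, Suv39h2, Cbx1, Cbx3, Cbx5, Trim28 and Atf7ip. They were chosen by name as the main methyltransferases of lysine 9 of histone H3 (H3K9), the HP1 proteins and their corepressors, and all 10 were found among the 14922 genes of the table. Poly(A) RNA was sequenced from primary neural stem cells (NSCs), to compare the MommeD43 allele of Smchd1 with its control in a pair of strains. The cultures were grown from the cortex of female mouse embryos at E14.5 and kept for at most 10 passages. FVB_WT lines were Smchd1+/+ on FVB/NJ and FVB_MD43 lines were Smchd1 MommeD43/MommeD43 on the same strain, with the allele that arose by chemical mutagenesis. B6GFP_WT and B6GFP_MD43 lines were C57BL/6J and carried Smchd1 fused to GFP, which the study's methods give as homozygous in both groups although the labels call the controls Smchd1+/+, and B6GFP_MD43 lines had the MommeD43 change made in the fusion allele by genome editing. Strain, GFP fusion and the origin of the allele therefore changed together, and nothing here tells them apart.

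Methylated H3K9 marks heterochromatin, the compact and mostly silent part of the genome. Methyltransferases add the mark, the chromodomain of an HP1 protein binds it, and bound HP1 recruits more methyltransferase, so that the mark can spread and be kept through cell division. SMCHD1, the chromosomal protein that MommeD43 alters, has been linked to H3K9-methylated chromatin of the inactive X chromosome through LRIF1, a partner of HP1. The study's introduction describes the recruitment of SMCHD1 to the inactive X as dependent on another histone mark, set by a polycomb complex. In neural progenitors these genes keep retroelements and the genes of other lineages silent.

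The values were log2 CPM (counts per 1000000 reads of the library, on the log2 scale). Of 24 columns, 2 equalled the mean of the other columns of their group in every gene (FVB_MD43 replicate 3 and B6GFP_MD43 replicate 2, both in batch 1) and were left out, which left 22 libraries of 17 lines: 6 libraries of 5 lines in FVB_WT, 5 of 4 in FVB_MD43, 6 of 4 in B6GFP_WT and 5 of 4 in B6GFP_MD43. Batch 1 held both strains, batch 2 held FVB and batch 3 held B6GFP. Against the deepest library, set to 1, the others of batch 3 had depths from 0.435, the libraries of batch 1 lay between 0.526 and 0.893, and those of batch 2 were the shallowest, with 0.137 to 0.19. The summed level of 6 NSC markers (Nes, Sox2, Vim, Fabp7, Pax6 and Slc1a3) was 12.4 to 12.9 log2 CPM over all groups, and the 4 microglial markers looked for were not in the table. The marker lists of neurons summed to 9.58 to 10.1 log2 CPM and those of the oligodendrocyte lineage to 8.715 to 9.525. Their most abundant genes were Map2 (mean 9.76) and Olig2 (9.19). Astrocyte markers summed to 4.38 to 7.575 and endothelial markers to -0.21 to 3.33. Smchd1 RNA itself did not pass the test between MommeD43 and wild type in FVB (fitted difference 0.05 log2, adjusted p = 0.942) or in B6GFP (-0.01 log2, adjusted p = 1), and it was lower in B6GFP than in FVB wild-type lines by a fitted difference of -0.22 log2 (adjusted p = 0.0143), a call lost in 2 of 10 other settings and in 2 of 17 fits that left out a line (adjusted p up to 0.266). In bulk RNA, fewer cells of a type and less RNA per cell cannot be told apart.

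The upstream sequences of the 4 members that passed the test between strains in wild-type lines are shown so that they can be set side by side. These are the 250 bases before a RefSeq start on GRCm38.p6, read in the direction of the gene. Ehmt2 and Cbx5 each have another window that is not printed. That of Ehmt2, at chr17:34898720-34898969, held 1 CACGTG, and that of Cbx5, at chr15:103215353-103215602, held none. The capitals mark GGGCGG or its reverse complement CCGCCC, the core letters of a GC box, and CACGTG, the palindromic E-box. Ehmt2 is at chr17:34898224-34898473 on the plus strand, Ehmt1 at chr2:24919610-24919859 on the minus strand, Cbx1 at chr11:96788885-96789134 on the plus strand and Cbx5 at chr15:103239853-103240102 on the minus strand.
Ehmt2: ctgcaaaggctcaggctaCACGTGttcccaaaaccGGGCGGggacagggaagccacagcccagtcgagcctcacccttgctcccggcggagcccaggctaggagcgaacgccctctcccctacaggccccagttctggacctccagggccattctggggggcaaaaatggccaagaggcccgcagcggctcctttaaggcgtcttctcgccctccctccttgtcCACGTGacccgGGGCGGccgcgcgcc
Ehmt1: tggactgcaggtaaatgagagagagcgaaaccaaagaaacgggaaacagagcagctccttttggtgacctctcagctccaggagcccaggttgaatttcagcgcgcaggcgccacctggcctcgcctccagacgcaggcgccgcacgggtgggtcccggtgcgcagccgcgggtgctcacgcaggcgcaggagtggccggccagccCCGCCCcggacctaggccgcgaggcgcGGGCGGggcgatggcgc
Cbx1: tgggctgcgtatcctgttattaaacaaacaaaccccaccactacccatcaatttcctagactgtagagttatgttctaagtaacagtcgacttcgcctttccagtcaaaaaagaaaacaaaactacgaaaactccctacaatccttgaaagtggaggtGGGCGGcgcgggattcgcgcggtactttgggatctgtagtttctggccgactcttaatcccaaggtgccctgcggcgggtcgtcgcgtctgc
Cbx5: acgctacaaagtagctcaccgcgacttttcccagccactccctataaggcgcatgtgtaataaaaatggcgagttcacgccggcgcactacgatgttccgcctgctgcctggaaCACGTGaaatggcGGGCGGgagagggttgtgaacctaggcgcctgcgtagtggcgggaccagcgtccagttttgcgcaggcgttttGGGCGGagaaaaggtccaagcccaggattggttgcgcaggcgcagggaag

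The 10 genes had 14 such windows in RefSeq. GGGCGG or CCGCCC stood in 13 of the 14 windows and in at least 1 window of all 10 members, against 32.7% of all 32851 windows of this length. CACGTG stood in 3 of the 14 windows, all of Ehmt2 or Cbx5, against 6.02% of all windows. The Ehmt2 window printed above held 2 copies, and 0.429% of all windows held 2 or more. TGACGTCA, the cAMP response element, was found in 1 window, that of Suv39h2 (1.55% of all windows). CCAAT or ATTGG stood in 4 of the 14 windows, of 4 members (33.9% of all windows), and TATAAA or TTTATA in none (12.4% of all). The windows of the members held a median of 21 CpG sites (7 to 36), against 6 over all windows, and a median GC content of 64.6% against 52.4%. These matches describe letters and were not tested as binding sites.

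Per length, the members fell in an order that was nearly the same in every line. Trim28, the corepressor that KRAB zinc finger proteins bring to their targets, was highest, with a median over lines of 184 CPM per kb of transcript (155 to 242). Cbx3, which encodes HP1 gamma, followed at 146 CPM per kb (122 to 170) and stood below Trim28 in all 17 lines. Cbx5 (HP1 alpha) had a median of 91.5 CPM per kb (69.2 to 109).

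The methyltransferases were lower than the most abundant readers. Ehmt2, which encodes G9a, led them with a median of 54.4 CPM per kb (45.5 to 60.5), and Cbx1 (HP1 beta), at 47.2 (38.1 to 56.6), overlapped it and was the lower of the pair in 15 of 17 lines. Setdb1, the enzyme that TRIM28 recruits, had 29.6 CPM per kb (27.9 to 32.4) and Suv39h1, an enzyme of pericentric heterochromatin, 26.5 (23.1 to 30.7), with overlapping ranges. Ehmt1 (GLP), the partner of G9a in a shared complex, had 16.0 CPM per kb (12.0 to 19.9).

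At the low end, Suv39h2, the paralogue of Suv39h1, and Atf7ip, the cofactor of SETDB1, could not be ordered, with medians of 8.89 and 8.31 CPM per kb and Suv39h2 the higher in 8 of 17 lines. These levels use the longest principal transcript of each gene. With the length of all exons together, Trim28 stayed first and Atf7ip last, Cbx5 passed Cbx3, and Cbx1 moved from the fifth place to the seventh. Setdb1, Suv39h2 and Trim28 overlap the genes Cers2, Dclre1c and Zbtb45 on the other strand, and whether strand was used in counting is not given in the sources used here. Reads of Cbx3 can also match its pseudogene Cbx3-ps5, which was listed at group means of 1.07 to 1.33 log2 CPM, against 8.01 to 8.16 for Cbx3.

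The paralogous pairs of methyltransferases had similar ratios in the 4 groups. Ehmt2 RNA was 3.26 ± 0.253 times that of Ehmt1 per length in the 5 lines of FVB_WT (SD), and, with 4 lines each, 3.29 ± 0.229 in FVB_MD43, 3.38 ± 0.402 in B6GFP_WT and 3.09 ± 0.108 in B6GFP_MD43. Suv39h1 RNA was 3.05 ± 0.402 times that of Suv39h2 in FVB_WT, 3.02 ± 0.151 in FVB_MD43, 3.26 ± 0.318 in B6GFP_WT and 3.01 ± 0.349 in B6GFP_MD43. The ranges of the lines overlapped between all groups for both ratios.

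**Figure D1:**
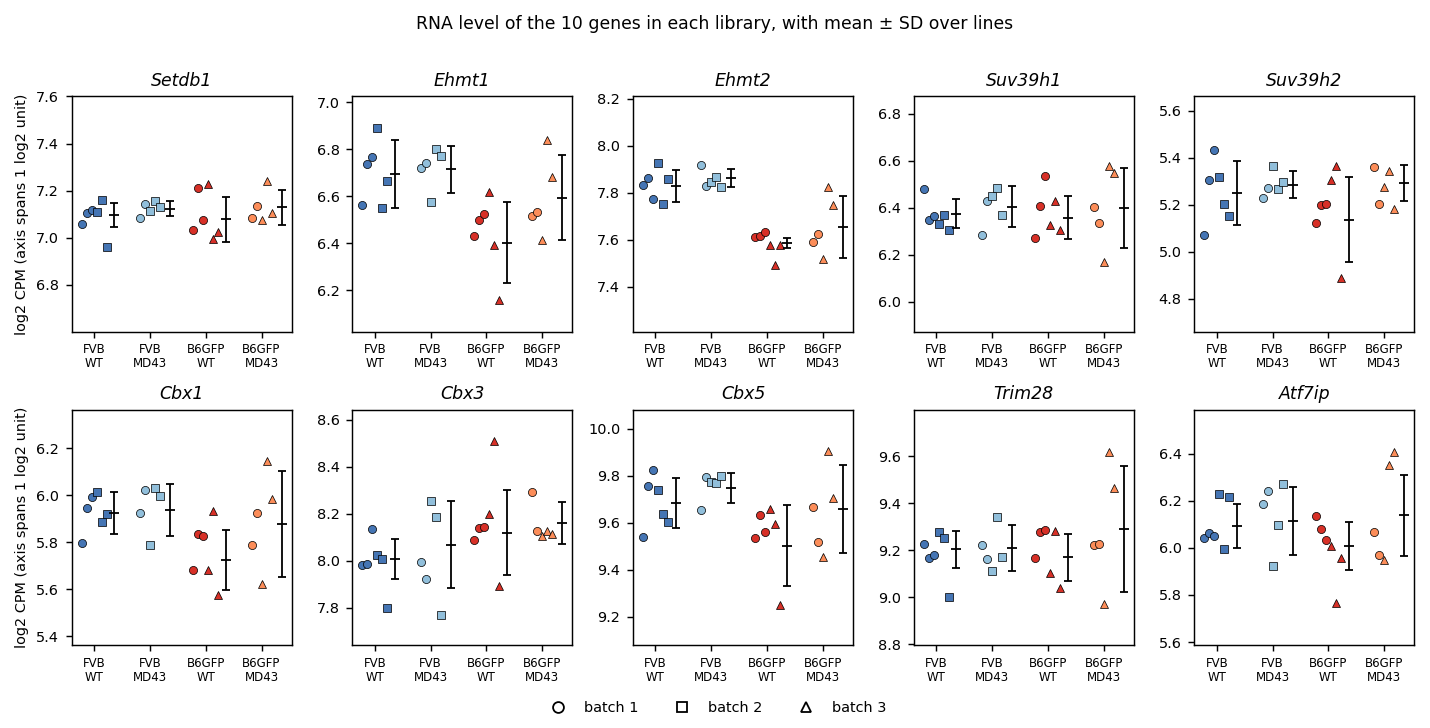
Level of each gene in log2 CPM (vertical axis, spanning 1 log2 unit in every panel) in the 22 libraries of the 4 groups, with circles, squares and triangles for batches 1, 2 and 3 and bars for the mean ± SD over lines. FVB and B6GFP lines are apart in the panel of Ehmt2, where the B6GFP_WT libraries lie between 7.49 and 7.63 and the FVB_WT libraries between 7.75 and 7.93.

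The first comparison asked whether the RNA of the H3K9 machinery differed between MommeD43 and wild-type NSCs. None of the 10 members passed in FVB (limma, Benjamini-Hochberg adjusted p under 0.05), where 0.0737% of all genes did, and none passed in B6GFP, where 0.0% of all genes did. At an unadjusted p under 0.05, 1 of 10 members was called in FVB, beside 1024 of 14922 genes, and 0 of 10 in B6GFP, beside 319. No member had lines that were apart between the groups in FVB, as 1.05% of all genes had, or in B6GFP, as 1.23% had.

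The 95% intervals of these differences depended on the quality weights. With the weights, the interval in FVB reached at most 1.17-fold in either direction for Atf7ip and at most 1.06-fold for Ehmt2, with the other members between. In B6GFP the bounds ran from 1.07-fold for Ehmt2 to 1.17-fold for Cbx3 and 1.175-fold for Suv39h2. Without the weights, the bounds ran from 1.11-fold for Ehmt2 to 1.20-fold for Cbx3 in FVB, and from 1.12-fold for Setdb1 to 1.29-fold for Ehmt1 in B6GFP. In B6GFP the plain differences of the line means were 0.19 log2 for Ehmt1, whose 4 MommeD43 lines all lay above the wild-type mean, and 0.16 for Cbx5, and both lay outside the weighted intervals (upper ends 0.15 and 0.15). Without the weights the fitted differences of Ehmt1 and Cbx5 were 0.17 and 0.13 log2, with intervals that included 0. Every member had a plain difference above 0 in both strains, from 0.0075 to 0.064 log2 in FVB and from 0.040 to 0.19 in B6GFP. The fitted differences without the weights were also all above 0. Over all genes their median was 0.0092 log2 in FVB and 0.035 in B6GFP. This common direction was not tested.

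Atf7ip had the largest fitted difference in FVB and the only unadjusted p under 0.05. Its FVB_MD43 libraries were at 6.19, 6.24, 5.92, 6.10 and 6.27 log2 CPM, and the FVB_WT libraries ran from 5.99 to 6.23 with a median of 6.06. The FVB_MD43 libraries therefore included both the lowest and the highest value, and the groups overlapped. The fitted difference was 0.12 log2 (SE 0.05, adjusted p = 0.711), while the plain difference of the line means was 0.02. The fit gave libraries unequal quality weights, and without them the difference was 0.03.

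Cbx3 had the next largest fitted difference in FVB, -0.06 log2 (SE 0.06, adjusted p = 0.937), and its sign turned without quality weights. In B6GFP the largest was that of Suv39h2, 0.10 log2 (SE 0.07, adjusted p = 1), followed by Cbx1 at 0.06 (SE 0.06, adjusted p = 1). Suv39h2 stood at 5.36, 5.20, 5.28, 5.34 and 5.18 log2 CPM in the B6GFP_MD43 libraries and between 4.89 and 5.37 in B6GFP_WT, with a median of 5.20. The mutant values lay inside the range of the controls.

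The difference of the MommeD43 effect between the strains was also tested for each member. It passed for 0 of 10 members, with 0.0% of all genes called, and 0 members and 459 genes had an unadjusted p under 0.05 (limma). The largest differences, B6GFP minus FVB, were 0.14 log2 for Suv39h2 (SE 0.08) and -0.12 for Atf7ip (SE 0.09), both with an adjusted p of 0.9998. For Setdb1, the FVB_MD43 mean was 7.12 ± 0.031 log2 CPM (SD, n = 4 lines) against 7.10 ± 0.0506 in FVB_WT (n = 5), and the B6GFP_MD43 mean was 7.13 ± 0.0756 (n = 4) against 7.08 ± 0.0955 in B6GFP_WT (n = 4). Trim28, which brings SETDB1 to chromatin, was at 9.20 ± 0.077 in FVB_WT, 9.21 ± 0.0978 in FVB_MD43, 9.17 ± 0.101 in B6GFP_WT and 9.29 ± 0.268 in B6GFP_MD43.

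**Figure D2:**
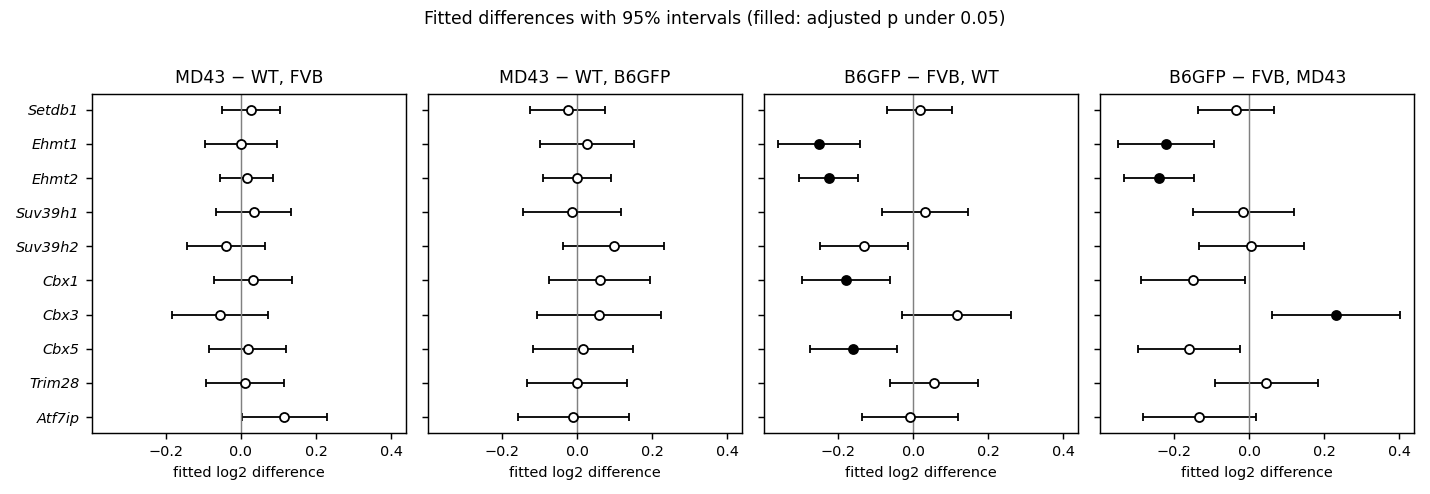
Fitted log2 differences of the 10 genes (horizontal axis) with 95% intervals in 4 comparisons, one per panel, with filled points for an adjusted p under 0.05. All points are open for MommeD43 against wild type, and 4 are filled for B6GFP against FVB in wild-type lines.

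The strain comparison in wild-type lines (B6GFP_WT against FVB_WT) found 4 members that differed. Both subunits of the G9a and GLP complex and a pair of HP1 genes were lower in B6GFP: Ehmt1, Ehmt2, Cbx1 and Cbx5. These 4 of 10 passed, beside 41.1% of all genes, and all 4 were lower, beside 23.2% of all genes lower and 17.9% higher. The share of members that passed was thus close to that of all genes. When each library was centred on its median, 3608 genes were higher and 2544 lower in place of 2676 and 3455, and Ehmt1 and Ehmt2 alone of the members passed. The same 2 were left without FVB_WT replicate 2, FVB_WT replicate 3 or B6GFP_WT replicate 1, and without quality weights 1 was left, Ehmt2.

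Ehmt2 was the member with the smallest p. Its B6GFP_WT libraries ran from 7.49 to 7.63 log2 CPM (median 7.60) and its FVB_WT libraries from 7.75 to 7.93 (median 7.85). Every B6GFP_WT library was below every FVB_WT library. The fitted difference was -0.22 log2 (95% interval -0.30 to -0.15, adjusted p = 8.22e-05), and within batch 1, which held both strains, it was -0.21 (adjusted p = 0.00487). It passed in all 17 fits that left out a line and in all 10 other settings, without quality weights included.

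Ehmt1 RNA ran from 6.16 to 6.62 log2 CPM in B6GFP_WT (median 6.47) and from 6.55 to 6.89 in FVB_WT (median 6.70). The lowest B6GFP_WT value was that of replicate 4, the library with the lowest quality weight of all, 0.101. The fitted difference was -0.25 log2 (95% interval -0.36 to -0.14, adjusted p = 0.000708) and within batch 1 it was -0.26 (adjusted p = 0.00294). The groups overlapped by 1 library, and without quality weights the adjusted p was 0.125.

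Cbx1 ran from 5.58 to 5.93 log2 CPM in B6GFP_WT (median 5.75) and from 5.80 to 6.01 in FVB_WT (median 5.93). Its fitted difference was -0.18 log2 (95% interval -0.30 to -0.06, adjusted p = 0.0153), and within batch 1 it was also -0.18 (adjusted p = 0.0489). The libraries of the groups overlapped. Cbx1 no longer passed without quality weights (adjusted p = 0.339) or when FVB_WT replicate 2, FVB_WT replicate 3 or B6GFP_WT replicate 1 was left out (adjusted p = 0.0603, 0.0566 and 0.115).

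Cbx5, the most abundant of the HP1 genes in CPM, ran from 9.25 to 9.66 log2 CPM in B6GFP_WT (median 9.58) and from 9.54 to 9.82 in FVB_WT (median 9.69), and the groups overlapped. Its fitted difference was -0.16 log2 (95% interval -0.27 to -0.04, adjusted p = 0.0263), and within batch 1 it was -0.19 (adjusted p = 0.0637). The call was lost without quality weights (adjusted p = 0.375), when FVB_WT replicate 2, FVB_WT replicate 3, B6GFP_WT replicate 1, B6GFP_WT replicate 3 or B6GFP_MD43 replicate 3 was left out (adjusted p = 0.0949, 0.125, 0.112, 0.0814 and 0.0544), and with a replicate block (adjusted p = 0.0827).

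The other members did not pass in wild-type lines. Suv39h2 had a fitted difference of -0.13 log2 (adjusted p = 0.0711), Cbx3 of 0.12 (adjusted p = 0.195) and Trim28 of 0.06 (adjusted p = 0.452). Suv39h1, Setdb1 and Atf7ip had fitted differences of 0.03, 0.02 and -0.01 log2 (adjusted p = 0.685, 0.778 and 0.932), and their 95% intervals reached at most 1.11-fold, 1.08-fold and 1.10-fold. Without quality weights the bounds of Setdb1, Trim28 and Atf7ip were 1.10-fold, 1.19-fold and 1.27-fold.

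In MommeD43 lines, 3 of 10 members passed between strains, beside 34.4% of all genes. Ehmt1 and Ehmt2 were lower in B6GFP, beside 19.6% of all genes, and Cbx3 was higher, beside 14.7%. With each library centred on its median, 3013 genes were higher and 2265 lower in place of 2199 and 2927. Without quality weights, 0 members passed, and 5 passed without B6GFP_MD43 replicate 2 or without B6GFP_MD43 replicate 3.

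Ehmt2 stood at 7.59, 7.62, 7.52, 7.82 and 7.75 log2 CPM in the B6GFP_MD43 libraries and at 7.92, 7.83, 7.84, 7.87 and 7.83 in FVB_MD43. The highest B6GFP_MD43 value, that of replicate 2 in batch 3, was just under the lowest of FVB_MD43. The fitted difference was -0.24 log2 (95% interval -0.33 to -0.15, adjusted p = 0.000299), within batch 1 it was -0.27 (adjusted p = 0.00706), and without quality weights it was -0.20 (adjusted p = 0.138).

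Ehmt1 stood at 6.52, 6.53, 6.42, 6.84 and 6.68 log2 CPM in B6GFP_MD43 and at 6.72, 6.74, 6.57, 6.80 and 6.77 in FVB_MD43. The same library of B6GFP_MD43 replicate 2 gave the highest value of both groups, and its quality weight was 0.158. The fitted difference was -0.22 log2 (95% interval -0.35 to -0.09, adjusted p = 0.00835), while the plain difference of the line means was -0.12. Without quality weights the adjusted p was 0.634, and after median centring of the libraries it was 0.0638.

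Cbx3 stood at 8.29, 8.13, 8.11, 8.13 and 8.11 log2 CPM in B6GFP_MD43 and at 7.99, 7.92, 8.25, 8.19 and 7.77 in FVB_MD43. The FVB_MD43 libraries of batch 2 spanned nearly the whole range of both groups, so the groups overlapped. The fitted difference was 0.23 log2 (95% interval 0.06 to 0.40, adjusted p = 0.0335) against a plain difference of line means of 0.09, and within batch 1 it was 0.25 (adjusted p = 0.0347). It no longer passed without quality weights (adjusted p = 0.81), with a replicate block (adjusted p = 0.246), with each library scaled to the same linear total (adjusted p = 0.0603), or without B6GFP_WT replicate 1, B6GFP_WT replicate 2, B6GFP_MD43 replicate 1 or B6GFP_MD43 replicate 4 (adjusted p = 0.0503, 0.101, 0.0971 and 0.0826). For Cbx5 and Cbx1 the fitted differences in MommeD43 lines were -0.16 and -0.15 log2 (adjusted p = 0.0621 and 0.085).

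Of the members, 1 (Ehmt2) had lines of the strains apart from each other in wild type, as 15.9% of all genes had, and the same gene did in MommeD43, as 21.3% of all genes had. The FVB_WT and FVB_MD43 lines, and the B6GFP_WT and B6GFP_MD43 lines, are separate lines, so the pair of strain comparisons share no library, but they share the fit, the batches and the strain and fusion differences.

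Cell composition markers moved with strain. Of 8 genes of dividing cells, 7 were higher in B6GFP_WT than in FVB_WT (limma), from 0.14 log2 for Cdk1 to 0.31 for Mki67, and Ccnb1 did not pass (0.06). Their summed level was 11.2 to 11.7 log2 CPM in B6GFP_WT and 11.3 to 11.45 in FVB_WT, and in MommeD43 lines 11.4 to 11.9 in B6GFP and 11.4 to 11.6 in FVB, where 2 of the 8 passed. All 4 astrocyte markers (Gfap, Aqp4, Aldh1l1 and S100b) were lower in B6GFP_WT, with a summed level of 4.38 to 6.71 log2 CPM against 6.14 to 6.95 in FVB_WT. Gfap, Aqp4 and S100b were scarce, with means of -0.46, -0.68 and -0.14 log2 CPM, so the sum mostly follows Aldh1l1 (mean 5.97). Within the NSC list, Nes and Vim were higher in B6GFP_WT (0.67 and 0.28 log2), Sox2, Fabp7 and Slc1a3 were lower (-0.40, -0.27 and -0.59), and Pax6 did not pass (-0.09). The part of these shifts in the strain differences of Ehmt1, Ehmt2, Cbx1, Cbx3 and Cbx5 was not tested.

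The make-up of the HP1 RNA differed in the same lines. Taken per length, Cbx3 gave 49.0% ± 1.52 of the RNA of the 3 HP1 genes in FVB_WT (SD, n = 5 lines) and 54.1% ± 1.26 in B6GFP_WT (n = 4 lines). Lines ran from 47.0 to 51.0% in FVB_WT and from 53.2 to 56.0% in B6GFP_WT and did not overlap. Cbx1 gave 17.4% ± 0.645 in FVB_WT and 15.5% ± 0.563 in B6GFP_WT, and Cbx5 33.6% ± 1.01 and 30.3% ± 1.46, both without overlap of the lines.

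In MommeD43 lines the shares were more spread and overlapped. Cbx3 gave 49.2% ± 3.60 in FVB_MD43 (n = 4 lines, 44.4 to 53.0%) and 52.2% ± 3.69 in B6GFP_MD43 (n = 4 lines, 47.2 to 55.1%). The share depends on the transcript lengths used, and the 1251 bases of the Cbx1 transcript are few beside the 8803 of Cbx5, so the shares compare lines and not the amounts of protein. No test was made of the shares, which restate the levels of the same 3 genes.

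**Figure D3:**
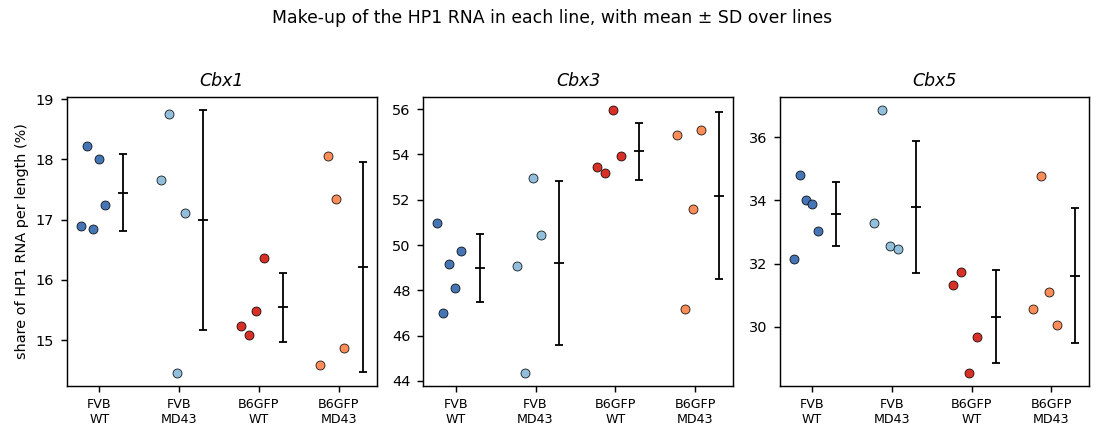
Share of each HP1 gene in the RNA of Cbx1, Cbx3 and Cbx5 per transcript length (vertical axis, percent, with a different range in each panel) in each of the 17 lines of 4 groups, with mean ± SD over lines. The B6GFP_WT lines lie above the FVB_WT lines for Cbx3 and below them for Cbx1 and Cbx5, and the MommeD43 groups overlap.

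Over the 22 libraries, the residual SD of every member lay under the median of the genes compared, with Setdb1 and Ehmt2 the lowest. Residuals were taken from the group and batch terms of the fit with quality weights. Their SD, with every library counted equally, ran from 0.0716 log2 for Setdb1 and 0.0759 for Ehmt2 to 0.154 for Atf7ip. The median was 0.166 over the 9974 genes with a mean of at least 3 log2 CPM. Libraries of low weight pull the fit less, so more of their offset stays in the residuals. Of the 9974 genes, 97.7% varied more than Setdb1, 96.65% more than Ehmt2, 57.8% more than Cbx3 and 56.7% more than Atf7ip. The mean levels of the members ran from 5.24 log2 CPM (Suv39h2) to 9.65 (Cbx5), and their SDs were not set against genes of like level.

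Residuals of the members moved together or apart in patterns that cross the enzyme families. Over the 22 libraries, Pearson's r of the 45 pairs ran from -0.577 (Cbx3 and Atf7ip) to 0.835 (Ehmt1 and Cbx5). Trim28 went with Cbx1 (0.819) and Suv39h1 (0.805), Ehmt2 went with Atf7ip (0.782), and Suv39h2 went with Cbx5 (0.71) and Cbx3 (0.692). The paralogues Suv39h1 and Suv39h2 had an r of 0.0694, and Cbx3 had 0.0842 with Cbx1. These are descriptions: the points share libraries, depth, batch and cell composition, and repeats of a line are not independent. Libraries that had a low quality weight in the fit counted fully in each r.

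**Figure D4:**
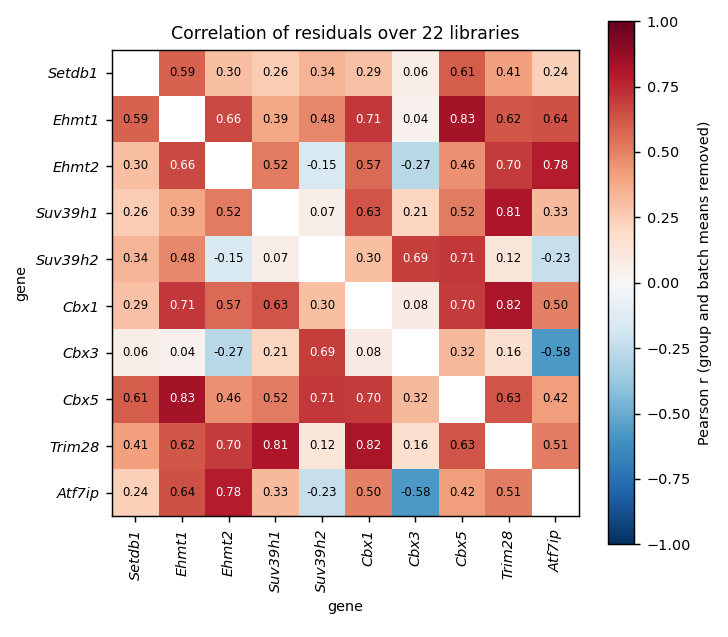
Pearson's r between the residuals of each pair of the 10 genes (colour and printed value) over 22 libraries. Residuals are from the group and batch terms of the fit with quality weights, and r counts every library equally. The highest value is that of Ehmt1 and Cbx5 (0.835), and the 4 negative pairs join Cbx3 or Suv39h2 with Atf7ip or Ehmt2.

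For each member, the gene with the most alike residuals over the 22 libraries was looked up among the 9974 genes. They were Gnpat for Ehmt1 (r = 0.929), Gtse1 for Trim28 (0.924), Sgo2a for Cbx5 (0.919), Tbc1d10b for Ehmt2 (0.907) and Svil for Setdb1 (0.899). Ube2e3 was nearest to Cbx3 (0.898), Ints7 to Suv39h1 (0.895), Chek1 to Suv39h2 (0.888), Dnajb5 to Cbx1 (0.888) and Fgd1 to Atf7ip (0.884). Each is the best of many, so its r is high by selection.

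Around the members, 31 other genes of the H3K9 pathway were listed and 29 were in the table: other methyltransferases, demethylases, partners of G9a and GLP, the HUSH complex, and partners of HP1. None of the 29 passed for MommeD43 in FVB or in B6GFP, or for the difference between strains (limma). At an unadjusted p under 0.05 there was 1 of 29 in FVB, 0 in B6GFP and 2 for the difference, beside 1024, 319 and 459 of all 14922 genes. The one in FVB was Morc2a, an ATPase that works with HUSH, at -0.23 log2 (adjusted p = 0.379), and the difference had Morc2a (0.34) and Setdb2 (-0.27), both with an adjusted p of 0.9998. These names were chosen after their values were seen.

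Between strains in wild-type lines, 15 of the 29 passed, 7 higher and 8 lower in B6GFP, which is 51.7% beside the 41.1% of all genes. The smallest p-values were those of Pphln1, a HUSH subunit (0.69 log2, adjusted p = 2.68e-06), Lbr, the lamin B receptor of the inner nuclear membrane that binds HP1 (0.33, adjusted p = 5.57e-06), and Phf8, a demethylase of H3K9 (-0.36, adjusted p = 4.35e-05). Jmjd1c, of the JmjC family of demethylases, was at 0.28 log2 (adjusted p = 0.00128) and Prdm16, a methyltransferase of the PRDM family, at -1.08 (adjusted p = 0.00143). Prdm16 RNA was scarce, with group means from -0.86 log2 CPM in B6GFP_WT to 0.51 in FVB_WT. Of these 5 genes, Pphln1 alone passed in all 10 other settings, and the other 4 passed in 9, missing without quality weights. All 4 genes of the HUSH group passed, 3 of them lower, though Mphosph8 passed in 7 of 10 other settings and Morc2a in 8 of 10 and in 10 of 17 fits with 1 line removed. The 3 partners of G9a and GLP did not pass, with differences from -0.02 to 0.05 log2.

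In MommeD43 lines 9 of the 29 passed between strains, 4 higher and 5 lower, which is 31.0% beside 34.4% of all genes (14.7% higher and 19.6% lower). Of the 4 HUSH genes 1 passed, Pphln1. The 5 with the smallest p were the same genes, with fitted differences of 0.69 log2 for Pphln1, -0.38 for Phf8, 0.28 for Lbr, 0.34 for Jmjd1c and -1.11 for Prdm16. For the scarce Prdm16, the plain difference of line means was only -0.29 and the lines of the strains overlapped. Its call (limma, adjusted p = 0.00536) was kept in 9 of 10 other settings, with an adjusted p up to 0.749. Lrif1, a link between SMCHD1 and HP1, is named here after its values were seen. It was at -0.25 log2 in wild type (adjusted p = 0.0298) and -0.34 in MommeD43 lines (adjusted p = 0.0186) between strains, and it did not pass between MommeD43 and wild type in FVB (-0.09, adjusted p = 0.921) or B6GFP (-0.17, adjusted p = 1). Its strain call in wild type was kept in 7 of 10 other settings and 13 of 17 fits that left out a line (adjusted p up to 0.505), and that in MommeD43 lines in 7 of 10 settings (adjusted p up to 0.282).

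**Figure D5:**
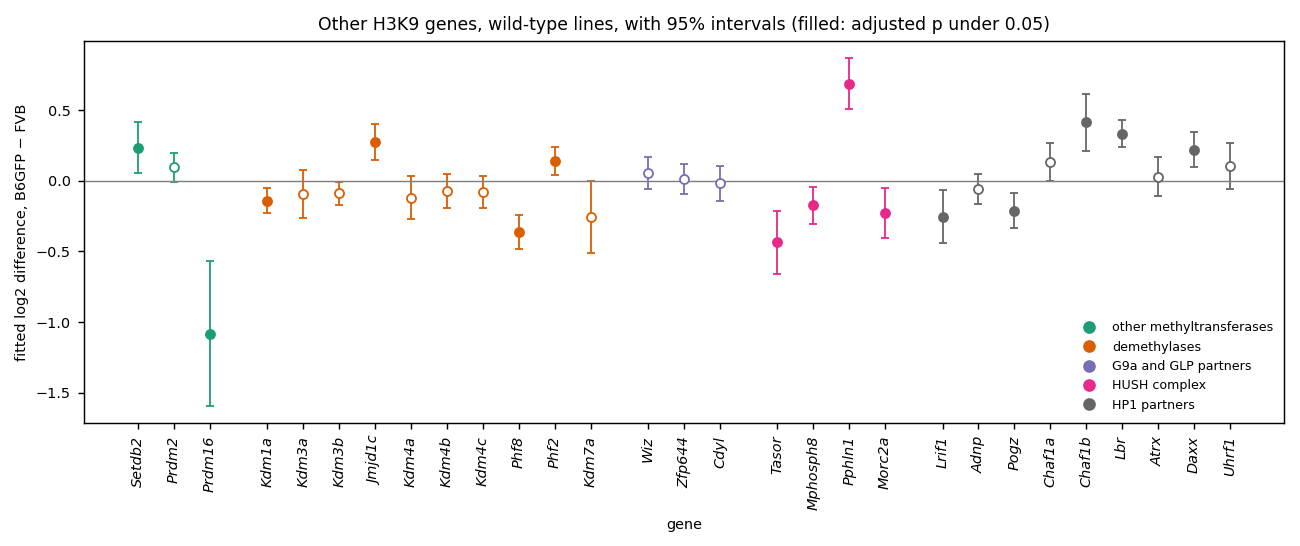
Fitted log2 differences of B6GFP against FVB in wild-type lines (vertical axis, 95% intervals) for the 29 other H3K9 genes, coloured by group, with filled points for an adjusted p under 0.05. The 3 partners of G9a and GLP lie near 0, and Prdm16 and Pphln1 are the farthest from it, at -1.08 and 0.69.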

How the data were processed

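The authors trimmed reads with Trim Galore 0.4.4, mapped them with HISAT2 2.0.5 to GRCm38.p6 and used limma 3.40.6. The read counter and annotation are not given in the sources used here. The deposited values are log2 CPM, already corrected for batch by the authors, from 100 ng of RNA per library. Back-transformed, a library summed to 898522 to 979739 of a nominal 1000000. In genes where at least 2 libraries of a batch tied at the lowest value, 3143 of 3143 low values (up to 10 steps, tolerance 0.01 of a step) were whole multiples of a step, taken as 1 read, which gave relative depth. Absolute depth was unknown.

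Here limma 3.58.1 in R 4.3.3 was fitted to all 4 groups with group and batch terms, quality weights (0.101 to 4.9), a mean-variance trend and the line as a block (correlation 0.0827), on 16 residual degrees of freedom. Adjusted p-values are those of Benjamini and Hochberg, taken over the whole table. Group means and SDs are over lines, which the labels call biological replicates. Transcript lengths are from GENCODE vM21 and positions and upstream windows from RefSeq. Named genes were the 10 members, Smchd1, the other H3K9 genes passing a comparison (at most 5 by smallest p), and the gene most alike to each member. The fit was also run on simulated data. Those had independent noise of the same spread in every library, without effects of line, batch or library quality. The run therefore could not check the quality weights. The members and lists were chosen with earlier results of these data known. Alternatives were other weights, blocks, scalings, a pseudocount of 1, a filter on low values, single batches and leaving out each line.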

Additional observations from a re-analysis of the deposited data

Results flagged for a closer look

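In 3 of the 40 groups of lines (10 genes in 4 groups of 4 or 5 lines), 1 line stood far from the others of its group by Dixon's test at the 95% level, and chance gives about 2. Setdb1 was at 7.22 log2 CPM in B6GFP_WT replicate 2, against 7.02 to 7.04 in the other 3 lines of that group. Suv39h1 was at 6.48 log2 CPM in FVB_WT replicate 1, against 6.33 to 6.37 in the other 4 lines. Cbx3 was at 8.29 log2 CPM in B6GFP_MD43 replicate 1, against 8.11 to 8.13 in the other 3 lines, and this is one of the lines without which the strain difference of Cbx3 in MommeD43 lines did not pass.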

How the results depend on the processing

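For MommeD43 against wild type in either strain, and for the difference between strains, the number of members passing was 0 under every setting tried. Between strains in wild-type lines, where 4 passed, 1 passed without quality weights, 2 with each library centred on its median, 3 with a replicate block and 2 to 5 when a line was left out. In MommeD43 lines, where 3 passed, 0 passed without quality weights, 7 with all 24 columns, 2 with a replicate block and 2 to 5 when a line was left out. Same-numbered lines did not deviate together (correlations from -0.696 to 0.274 in FVB and from -0.389 to 0.0428 in B6GFP), so the replicate number was not taken as a pairing. The replicate block took the calls over all genes from 11 to 137 in FVB and from 0 to 3 in B6GFP. Without quality weights, calls over all genes went from 11 to 1 in FVB, from 6131 to 1259 between strains in wild type and from 5126 to 1017 in MommeD43. With all 24 columns, the numbers were 510 in FVB, 480 in B6GFP, 13991 between strains in MommeD43 and 61 for the difference. Signs turned only for members that had not passed. For MommeD43 against wild type and for the difference, the signs listed next are those of the 2 members with the largest fitted differences. Without quality weights, Ehmt1 (0.0241) and Suv39h2 (0.0386) also turned in FVB. In B6GFP, Setdb1 (0.0408), Ehmt2 (0.0723), Suv39h1 (0.0312), Trim28 (0.112) and Atf7ip (0.142) did so. For the difference, Setdb1 (0.00562), Ehmt2 (0.0451), Cbx3 (-0.0418), Cbx5 (0.0552) and Trim28 (0.0965) turned. Without quality weights, they turned for Cbx3 in FVB (0.0486), in wild type for Setdb1 (-0.00463), Suv39h1 (-0.00273) and Trim28 (-0.016), in MommeD43 lines for Setdb1 (0.000989), Suv39h2 (-0.0206) and Atf7ip (0.0169), and for the difference of Atf7ip (0.108). With the mean of each line's libraries, they turned for Setdb1 (-0.0127) and Suv39h1 (-0.0269) in wild type and Suv39h1 (0.0428) in MommeD43 lines. With the same linear total, they turned for Setdb1 in wild type (-0.00518) and Suv39h2 in MommeD43 lines (-0.024). With median centring, they turned for Atf7ip in wild type (0.0556) and for Setdb1 (0.028) and Suv39h1 (0.0455) in MommeD43 lines. With all 24 columns, they turned for Atf7ip in wild type (0.00204), for Setdb1 (0.00178), Suv39h1 (0.00374), Suv39h2 (-0.0135) and Atf7ip (0.00362) in MommeD43 lines, and for the difference of Atf7ip (0.00158). With the replicate block, they turned in MommeD43 lines for Setdb1 (0.0244), Suv39h2 (-0.0533) and Trim28 (-0.00106). Within single batches, they turned for Cbx3 in FVB (0.0466, batch 2), Suv39h2 in B6GFP (-0.058, batch 3), Atf7ip in wild type (0.0359, batch 1) and Suv39h1 in MommeD43 lines (0.0121, batch 1). Leaving out a line gave -0.0508 to 0.0608 for Setdb1 and -0.0421 to 0.00402 for Atf7ip in wild type, and -0.0477 to 0.0157 for Setdb1, -0.0565 to 0.0835 for Suv39h1 and -0.0755 to 0.0757 for Suv39h2 in MommeD43 lines. The cause of these shifts was not tested.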
